A study of Danio rerio with 6 samples.

Results

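The levels of a cathepsin gene and of 3 digestive-type protease genes were followed in zebrafish follicles. These 4 genes, chosen by identifier from the 31540 Ensembl genes counted, are ctss2.1 (ENSDARG00000074656), a cathepsin S gene, enpep (ENSDARG00000057064), the gene of glutamyl aminopeptidase, prss59.1 (ENSDARG00000079274), a gene of the trypsin family, and ctrb1 (ENSDARG00000090428), a chymotrypsinogen B gene. All 4 belong to a panel of proteolysis genes that the study drew because its members were lower in the PV libraries analysed here, so a lower level in PV is not independent evidence for any of them. RNA from PV and PG follicles was sequenced in 6 libraries, 3 per stage. Both stages came from wild-type females of the AB strain, whose age is not given in the sources used here, and the ovaries of 3 fish were pooled for each of the 3 groups, each of which gave RNA of both stages, so the stages share their fish. PV follicles were the pre-vitellogenic ones, retained on a sieve that smaller follicles had passed. PG follicles were in primary growth, and had passed through the finest sieve. A sieved fraction holds oocytes with their follicle cells and can hold other ovarian tissue or blood, and no cell type was sorted.

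Cathepsins are proteases of the lysosome, most of them cysteine proteases of the papain family and some, such as cathepsin D, aspartic proteases. In fish oocytes cathepsins B, D and L are known for cutting vitellogenin into yolk proteins, while cathepsin S is known in mammals from antigen-presenting cells, where it trims the invariant chain. Trypsin and chymotrypsin are made as inactive zymogens by the acinar cells of the exocrine pancreas, together with carboxypeptidases, elastases, amylase and lipases, and act in the gut lumen. Glutamyl aminopeptidase is a zinc enzyme of the M1 family that sits in the cell membrane and, in mammals, removes the first residue of angiotensin II.

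The libraries held between 14492086 and 36603108 counts, so that 3 counts stood for between 8.2e-06% and 2.07e-05% of a library. PG replicate 3 was the shallowest library and PG replicate 1 the deepest. Normalized counts are the counts divided by 1 size factor per library, between 0.554 and 1.42, and neither scale corrects for transcript length. DEGs were called where edgeR's quasi-likelihood F test gave a Benjamini-Hochberg adjusted p no higher than 0.05 and the log2 fold change, PV over PG, was at least 1 in size, and fold changes are given with their standard error (SE). Of 15899 genes tested, 5.97% were called lower and 13.2% higher in PV, and the median log2 fold change was 0.03. PV replicate 3 stood apart from the other libraries in transcripts typical of liver: the 7 vitellogenin genes summed to 294 normalized counts there, against 13278 and 22217 in PV replicates 1 and 2 and 12007 to 16236 in PG. The 14 oocyte markers all had counts, with sums of 127577 to 134179 in PV and 302129 to 311551 in PG. So did the 12 follicle cell markers, with sums of 4501 to 4990.3 in PV and 5444 to 5717 in PG. The gene cyp17a1 made up most of the follicle cell sum, with a mean of 2887 in PV and 5433 in PG, and set its direction. Of the 10 follicle cell genes tested, 7 were called higher in PV.

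All 4 genes were called lower in PV, where 5.97% of all genes tested were, which follows from how they were chosen. The cathepsin gene was counted deeply and evenly, and was lower in PV follicles by a little over 1 log2 unit. ctss2.1 had 16729, 15721 and 16593 normalized counts in PV replicates 1, 2 and 3, against 37780.1, 38941 and 40992 in the PG replicates. The libraries of each stage lay close to each other, and the lowest PG library was 2.26 times the highest PV library. The mean was 16348 ± 547 in PV and 39238 ± 1627 in PG (SD, n = 3 each), and the log2 fold change was -1.26 (SE 0.04, adjusted p = 6.19e-09 in edgeR's quasi-likelihood F test). The coefficient of variation between libraries was 3.34% in PV and 4.15% in PG, where counting error alone would give 0.753% in PV and 0.5% in PG. Counting error, here and below, takes counts as independent. The counts were extracted from the coverage of paired reads, where a fragment can add several, so the true counting error can be larger. In these bulk libraries fewer cells of a type and less RNA per cell cannot be told apart. The size of the fall depended on the scaling, since scaling by library totals alone, which moved the median of all genes by 0.42, gave ctss2.1 a log2 fold change of -0.85 (adjusted p = 5.5e-08 in edgeR's test), short of the fold threshold.

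**Figure D1:**
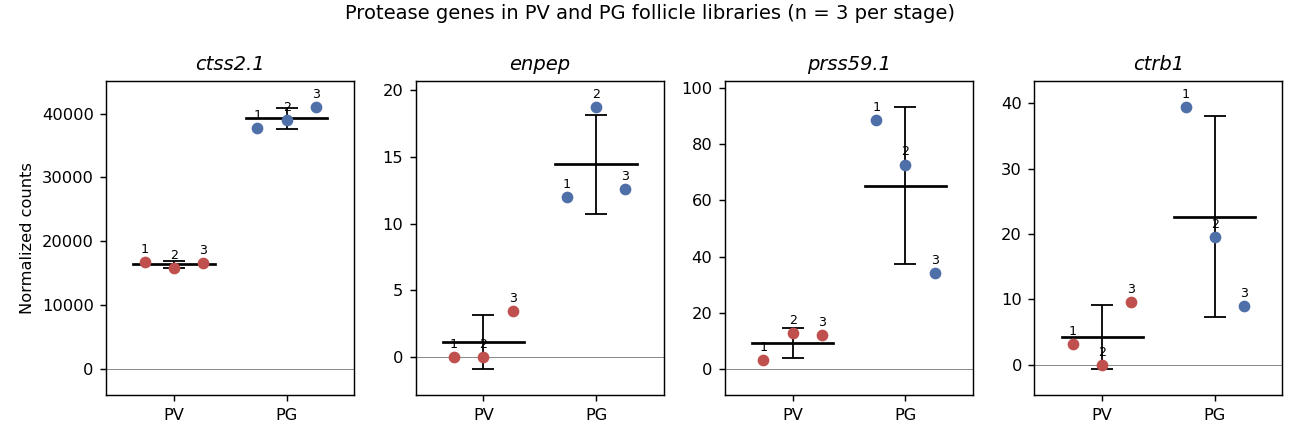
Normalized counts of the 4 protease genes in each library, PV on the left and PG on the right of each panel, with the replicate number over each point, a bar for the mean and whiskers for 1 SD (n = 3). The libraries of a stage nearly coincide for ctss2.1, whereas prss59.1 spreads from 3.14 to 12.6 in PV and from 34.3 to 88.7 in PG, and ctrb1 has its highest PV library (9.56) above its lowest PG library (9.02).

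The pancreatic-type proteases and the aminopeptidase rested on few counts, and their libraries differed more among themselves. prss59.1 had 4, 10 and 14 counts in PV replicates 1, 2 and 3, against 126, 82 and 19 in the PG replicates. After division by the size factors these became 3.14, 12.6 and 12.2 normalized counts in PV and 88.7, 72.8 and 34.3 in PG. The stages did not overlap, as was so with PV lower for 32.9% of all genes tested. Yet PV replicate 1 had less than the other PV libraries and PG replicate 3 less than the other PG libraries. The mean was 9.30 ± 5.34 in PV and 65.3 ± 28.0 in PG (SD, n = 3 each), giving a log2 fold change of -2.90 (SE 0.51, adjusted p = 0.000614 in edgeR's quasi-likelihood F test). Its PV libraries alone would not have passed the expression filter, so its PG libraries, where it was higher, were needed for it to be tested. The coefficient of variation was 57.4% in PV and 42.9% in PG, where counting error of independent counts would give 32.7% in PV and 11.5% in PG.

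ctrb1, whose product cuts after aromatic residues, followed the same order of stages with more overlap. It had 4, 0 and 11 counts in PV replicates 1, 2 and 3, against 56, 22 and 5 in the PG replicates, which made 3.14, 0 and 9.56 normalized counts in PV and 39.4, 19.5 and 9.02 in PG. PV replicate 3 lay above PG replicate 3, so the stages overlapped. The mean was 4.23 ± 4.88 in PV and 22.7 ± 15.4 in PG (SD, n = 3 each), and the log2 fold change was -2.37 (SE 0.80, adjusted p = 0.0255 in edgeR's quasi-likelihood F test). Like prss59.1, ctrb1 would not have passed the expression filter on its PV libraries alone. Unlike prss59.1, it passed through PG replicates 1 and 2 together with PV replicate 3. The call was the least stable of the 4: it was lost when PV replicate 1, PV replicate 2, PG replicate 1 or PG replicate 2 was left out, with adjusted p of 0.101, 0.0669, 0.165 and 0.0518 in the same test, and it was kept without PV replicate 3 or PG replicate 3.

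enpep was nearly absent from PV libraries and sparse in PG libraries. It had 0, 0 and 4 counts in PV replicates 1, 2 and 3, against 17, 21 and 7 in the PG replicates. On the normalized scale it had 0, 0 and 3.48 in PV, and 12.0, 18.7 and 12.6 in PG. The stages did not overlap, as was so with PV lower for 32.9% of all genes tested, and all PV counts came from replicate 3. The spread of the PG libraries (25.5%) was about that of counting error if counts are independent (25.8%). The mean was 1.16 ± 2.01 in PV and 14.4 ± 3.68 in PG (SD, n = 3 each), and the log2 fold change was -3.44 (SE 0.90, adjusted p = 0.00722 in edgeR's quasi-likelihood F test). The gene passed the expression filter only through its PG libraries, where it was higher. At its PV level in both stages it would not have been tested. PV replicates 1 and 2 held no count of enpep. With 3 counts over both as the limit, and counts taken as independent, enpep was at least 10-fold lower in them than in PG. This is no bound for the stage, since the lowest PG library was 3.44 times PV replicate 3.

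Summed over libraries and corrected for the size factors, enpep, with 4 counts in PV and 45 in PG, had a ratio of PG to PV of 11.7 (exact 95% interval 4.26 to 44.7). The same ratio was 8.41 for prss59.1, with 28 counts in PV and 227 in PG (5.67 to 12.9), and 5.74 for ctrb1, with 15 counts in PV and 83 in PG (3.29 to 10.7). These intervals cover counting error only and take counts as independent, so they can be too narrow for counts from paired reads. They overlap each other, and the differences between the ratios were not tested. For ctss2.1, with 52871 counts in PV and 120224 in PG, counting error was negligible beside the spread of the libraries. The biological coefficient of variation that edgeR gave each gene was 4.83% for ctss2.1, 34.7% for enpep, 36.2% for prss59.1 and 57.3% for ctrb1. The value in common to all genes was 8.4%, but it rises for rare genes. At the abundance of each gene, edgeR's trend stood at 5.76% for ctss2.1, 36.5% for enpep, 24.2% for prss59.1 and 33.9% for ctrb1. Thus enpep and ctss2.1 lay a little below the trend, and prss59.1 and ctrb1 above it.

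Other cathepsin genes did not share the size of the change in ctss2.1. Of 17 cathepsin genes matched in the table, 14 had a count, and 13 could be tested. Only ctss2.1, itself from a panel drawn for lower levels in PV, was called lower, where 5.97% of all genes tested were. Only ctsf (ENSDARG00000063095), a cysteine cathepsin, was called higher, where 13.2% of all genes tested were. The median log2 fold change of the 13 genes was -0.28, and 10 of them had no overlap between the stages, where 69.4% of all genes tested had none. ctsf had 86.4, 101 and 86.1 normalized counts in PV replicates 1, 2 and 3, against 13.4, 24.9 and 16.2 in PG. Its stages did not overlap, as was so with PV higher for 36.5% of all genes tested, and its log2 fold change was 2.31 (SE 0.28, adjusted p = 5.36e-05 in edgeR's quasi-likelihood F test). With each library scaled by its total, ctsf and ctso were the cathepsin genes called, both higher in PV.

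The yolk-related cathepsins differed by much less than ctss2.1. CTSB, the cathepsin B gene, had 19875, 19335 and 20081 normalized counts in PV, against 26660.4, 28048 and 27717 in PG, a log2 fold change of -0.48 (SE 0.03). ctsla, a cathepsin L gene, had 15257 ± 759 in PV and 18790.3 ± 432 in PG (SD, n = 3 each), giving a log2 fold change of -0.30. ctsd, the aspartic protease cathepsin D, had 3489 ± 14.5 in PV and 4239 ± 126 in PG (SD, n = 3 each), giving a log2 fold change of -0.28. Each had an adjusted p of at most 0.000139 in edgeR's test without reaching the fold threshold. None of their PV libraries overlapped with a PG library, where 32.9% of all genes tested lay lower in PV without overlap. Likewise below the fold threshold were ctsa, a carboxypeptidase (-0.36), ctsc, the dipeptidyl peptidase (-0.15), and ctsz, another carboxypeptidase (-0.29), while ctso was higher in PV (0.79). Of all genes tested, 29.9% had an adjusted p within 0.05 with a lower level in PV and 32.7% with a higher one. The lower levels of ctsa, ctsc, ctsd, ctsla and ctsz turned to higher ones with scaling by the library total (log2 fold changes between 0.06 and 0.26), and that of CTSB did not.

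The genes next to ctss2.1 in the RefSeq annotation, ctss2.2 and ctsk, did not pass the test. ctss2.2, a second cathepsin S gene, had 32.2, 49.1 and 44.3 normalized counts in PV, against 62.6, 54.2 and 46.9 in PG, and the stages overlapped (log2 fold change -0.42, adjusted p = 0.198 in edgeR's quasi-likelihood F test). ctsk, which cuts bone collagen in mammals, had 101 ± 3.31 in PV and 82.4 ± 9.09 in PG (SD, n = 3 each), giving a log2 fold change of 0.27. Log2 fold changes were 0.20 for ctsh, an aminopeptidase, and 0.19 for ctss1, another cathepsin S gene, both with standard errors above 0.5. ctsl.1, another cathepsin L gene, was below the filter, with 6 counts in PV replicate 3 and 9 in PG replicate 1. How the authors' counting divided reads between the cathepsin S genes was not tested.

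**Figure D2:**
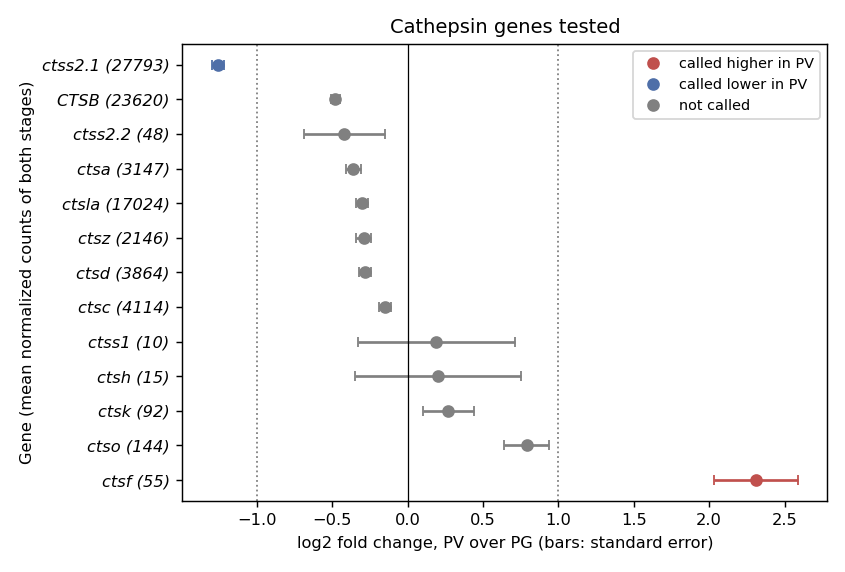
Log2 fold change, PV over PG, of the 13 tested cathepsin genes with the standard error as bars, and the mean normalized count over all libraries beside each symbol. Blue marks the gene called lower in PV (ctss2.1, -1.26), red the gene called higher (ctsf, 2.31), grey the others, and dotted lines stand at the fold threshold.

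Among the inhibitors of cysteine cathepsins, cst3, the secreted cystatin C, went the other way from ctss2.1. It had 155 ± 9.17 normalized counts in PV and 50.4 ± 5.62 in PG (SD, n = 3 each), giving a log2 fold change of 1.59 (adjusted p = 1.53e-05 in edgeR's quasi-likelihood F test). The cystatin genes cst14a.1 and cst14a.2 had log2 fold changes of -0.57 and -0.65, below the fold threshold. Of 23 other lysosomal genes tested, none was called lower and 1 was called higher, where 5.97% and 13.2% of all genes tested were. Their median log2 fold change was -0.02. The gene called higher was tfeb, a transcription factor of lysosome biogenesis (35 ± 1.78 in PV and 10.6 ± 2.1 in PG, SD, n = 3 each; log2 fold change 1.75). lamp2, a membrane protein of the lysosome and the most counted gene of this list, had a log2 fold change of -0.81. Another 8 genes of the list had an adjusted p within 0.05 with a higher level and 7 with a lower level in PV. Of all genes tested, called ones included, 32.7% had such an adjusted p with a higher level and 29.9% with a lower one.

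The exocrine pancreas list shows the company of prss59.1 and ctrb1. Of 30 such genes in the table, 23 had a count, most of them few, and 8 could be tested. Besides prss59.1 and ctrb1, prss59.2 and CPA1 were called lower, and pdia2 was called higher, where 5.97% and 13.2% of all genes tested were. The median log2 fold change of the 8 was -1.82, although genes this rare pass the filter mainly where 1 stage is high. Of the genes called lower, prss59.1, ctrb1 and prss59.2 also belong to the panel drawn for lower levels in PV. Without prss59.1 and ctrb1, the median of the 6 genes tested was -0.97, with 2 called lower and 1 higher. CPA1 (ENSDARG00000021339), a carboxypeptidase A, had 0, 0 and 13 counts in PV replicates 1, 2 and 3, against 134, 93 and 21 in PG. Its stages did not overlap, as was so with PV lower for 32.9% of all genes tested (log2 fold change -4.16, SE 0.79, adjusted p = 0.0011 in edgeR's quasi-likelihood F test). prss59.2, which lies beside prss59.1 in the RefSeq annotation, had 0, 6 and 19 counts in PV, against 67, 51 and 10 in PG (log2 fold change -2.25, adjusted p = 0.0303 in the same test of edgeR). On the normalized scale the highest PV library of prss59.2 had 16.5 and the lowest PG library 18, which is a narrow gap, and its call was lost without PV replicate 2, PG replicate 1 or PG replicate 2. With library totals as the scale, prss59.1, CPA1 and pdia2 stayed called, and prss59.2 and ctrb1 did not.

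Other enzymes of the list were not called. CELA1 (ENSDARG00000017314), an elastase, had 8, 6 and 34 counts in PV, against 61, 63 and 7 in PG, and overlapped (log2 fold change -1.39, adjusted p = 0.083 in edgeR's quasi-likelihood F test). prss1, another trypsin gene, had 87, 31 and 79 counts in PV, against 139, 106 and 35 in PG, and overlapped too (log2 fold change -0.54, adjusted p = 0.0944 in the same test of edgeR). Both had their lowest PG value in replicate 3, also after normalization. Below the filter, the elastase gene ela3l had 0, 0 and 6 counts in PV, against 30, 19 and 0 in PG. The elastase gene ela2l had 0, 0 and 7 in PV and 9, 11 and 0 in PG. Both elastase genes thus had their PV counts in replicate 3 alone. The carboxypeptidase B gene cpb1 had 7, 0 and 0 in PV and 10, 16 and 0 in PG. The amylase gene amy2a had 0, 4 and 0 in PV and 13, 2 and 0 in PG. In each of these rare genes PG replicates 1 and 2 together held most of the counts, and PG replicate 3 held none. PG replicate 3 was the shallowest library (size factor 0.554, against 1.421 and 1.126 in PG replicates 1 and 2). Its zeros for ela2l, cpb1 and amy2a thus say little.

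A pair of genes on the list behaved unlike the rest. amy2al1, named as an amylase gene, had 1005, 851 and 863 normalized counts in PV, against 1115, 1115 and 1146 in PG, and its PG libraries were nearly equal. Its log2 fold change was -0.31, which turned to 0.11 with scaling by the library total. pdia2, a protein disulfide isomerase known from the mammalian pancreas, had 1348, 1280.2 and 1152 normalized counts in PV, against 69.7, 60.4 and 0 in PG (log2 fold change 4.59, adjusted p = 1.52e-06 in edgeR's quasi-likelihood F test). The acinar transcription factor gene ptf1a had 3 counts in PV replicate 3, 3 in PG replicate 3 and none elsewhere. bhlha15, a transcription factor of secretory cells, had 7, 6 and 8 counts in PV, against 16, 9 and 10 in PG, below the filter.

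**Figure D3:**
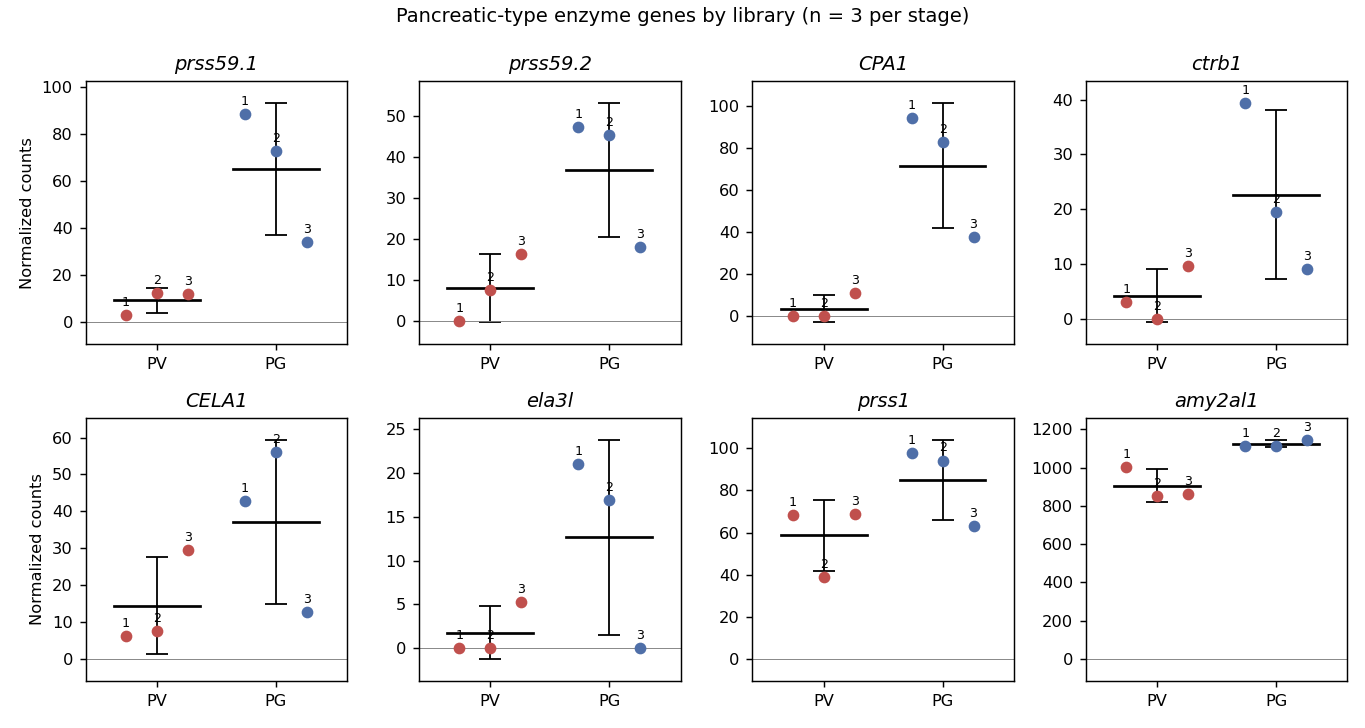
Normalized counts per library of 8 pancreatic-type enzyme genes, PV on the left and PG on the right of each panel, with the replicate number over each point, a bar for the mean and whiskers for 1 SD (n = 3). ela3l was below the filter, and pdia2, the gene of the list called higher in PV (log2 fold change 4.59), is not shown. PV replicate 3 is the highest PV library for prss59.2, CPA1, ctrb1, CELA1, ela3l and prss1, and PG replicate 3 is the lowest PG library in 7 of the panels and the highest in that of amy2al1 (1146).

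The counts of other acinar genes were also set against those of prss59.1 within each library. In the PV libraries, with 4, 10 and 14 counts of prss59.1 to divide by, CPA1 had 0, 0 and 92.9 and ctrb1 had 100, 0 and 78.6 per 100 counts of prss59.1. prss1 had 2175, 310 and 564 per 100 counts of prss59.1 in PV, and no proportion was steady across these libraries. In PG replicates 1, 2 and 3 there were 106, 113 and 111 counts of CPA1 per 100 counts of prss59.1, and 53.2, 62.2 and 52.6 counts of prss59.2. For ctrb1 there were 44.4, 26.8 and 26.3 counts in PG. In PG the proportions of CPA1 and prss59.2 were thus the most even of those compared. Those of prss1, at 110.3, 129 and 184, and of CELA1, at 48.4, 76.8 and 36.8, were less even. So were those of ela3l, at 23.8, 23.2 and 0. PG replicate 3 held only 21 counts of CPA1, 10 of prss59.2 and 19 of prss59.1. The counting error of these proportions was not computed, and whether any proportion was fixed was not tested. Of the counts of both prss59 genes, prss59.1 took 100%, 62.5% and 42.4% in PV and 65.3%, 61.7% and 65.5% in PG. When prss59.1 and prss59.2 were summed before the test, since reads could have been divided between them by the authors' counting, the log2 fold change was -2.64 (adjusted p = 0.00192 in edgeR's quasi-likelihood F test).

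Marker lists of other cell types were set beside these genes, and their part in the levels of prss59.1, ctrb1 and enpep was not tested. The exocrine list without prss59.1 and ctrb1 summed to 2444, 2197 and 2168 normalized counts in PV replicates 1, 2 and 3, against 1539, 1518 and 1314 in PG, and was thus higher in PV, with amy2al1 and pdia2 taking most of it. Without these as well, a choice made after their values were seen that turned the direction, the sum was 91.1, 66.8 and 153 in PV, against 355, 343 and 168 in PG. PG replicates 1 and 2 were high in the second sum, and PV replicate 3 stood near PG replicate 3, as it did for ctrb1. Of the defining acinar genes, ctrb.2 and ctrl were at 0 in every PV library, and cela1.2, cela1.3, cela1.4, cela1.5 and pla2g1b were at 0 in all 6 libraries. In PG, ctrb.2 had only 5 counts and ctrl 7, so their zeros in PV say little. By contrast, ctrb.3 was highest in PG replicate 3 (9.02 normalized counts). Another CELA1 gene (ENSDARG00000043175) averaged 2.23 in PV and 1.12 in PG. The 8 genes of the endocrine pancreas summed to 139 to 199 in PV and 219 to 301 in PG. Its most counted gene was insb, an insulin gene, which made up most of the sum in each library. insb had 123, 107 and 132 counts in PV, against 332, 178 and 129 in PG (log2 fold change -0.86, adjusted p = 0.00254 in edgeR's quasi-likelihood F test). The insulin gene ins, below the filter, had 0, 4 and 4 counts in PV, against 6, 0 and 0 in PG. The others tested were gcga, a glucagon gene (-1.44, adjusted p = 0.0696 in edgeR's test), and pdx1, a transcription factor of the pancreas (0.62), so that no islet gene passed both thresholds.

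The order of the libraries in liver-type transcripts was another one. Hepatocyte markers other than vitellogenins summed to 838, 1145 and 112 in PV replicates 1, 2 and 3, against 1263, 1242 and 1105 in PG. PV replicate 3 was thus the lowest library for liver transcripts. It was the highest PV library for ctrb1, CPA1, CELA1 and enpep, the last with 4 counts. It was not the highest for prss59.1 (12.6 normalized counts in PV replicate 2, 12.2 in replicate 3), amy2al1 or pdia2, and held no count of cpb1 or amy2a. Of 20 hepatocyte genes tested, 2 were called lower, ambp (log2 fold change -1.88) and hpxa (-1.09). The shares over all genes tested were 5.97% lower and 13.2% higher. Enterocyte markers summed to 194, 186 and 124 in PV, against 129, 82.6 and 70.4 in PG. Of 6 tested, ada, adenosine deaminase (1.76), and anpepb, an aminopeptidase N gene (1.32), were called higher, while fabp2, fabp6 and alpi.1 were at 0 in every library.

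Some blood and vessel markers also differed between the stages. Erythrocyte markers summed to 199, 374 and 438 in PV, against 701, 637 and 889.8 in PG, and the globin genes hbaa1 (log2 fold change -1.37) and hbba1 (-1.23) were called lower among 5 tested. The others tested, alas2 (-0.37), hbaa2 (0.27) and hemgn (0.40), were not called. For leukocytes, in which cathepsin S is best known, the sums were 514, 543 and 587 in PV, against 639, 665 and 466 in PG, and overlapped. Among 11 leukocyte genes tested 1 was called, grn1, a granulin gene (-1.55), and the most counted one, cd74a, the invariant chain, had a log2 fold change of 0.21. Mural cell markers summed to 1659.5, 1762 and 1466 in PV, against 905, 924 and 861 in PG. Of 9 tested, 5 were called higher (notch3 4.07, myh11a 2.99, acta2 2.30) and 2 lower, among them the most counted, rgs5b (-1.08). Among all genes tested, 13.2% were called higher and 5.97% lower. The paper lists notch3 with the genes of follicle cells. It held 666, 785 and 551 of the PV sums and 45.8, 47.1 and 12.6 of the PG sums, and thus most of the difference. Scaled by library totals, none of the lower calls in the hepatocyte, erythrocyte and leukocyte lists remained.

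**Figure D4:**
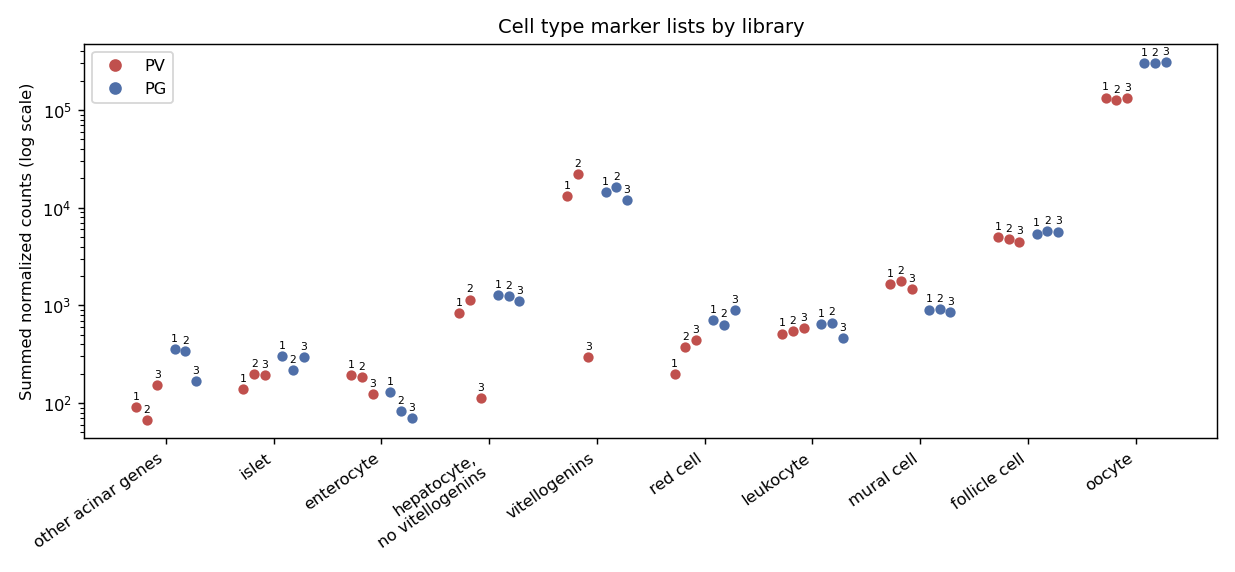
Summed normalized counts of 10 marker lists in each library on a log axis, with PV in red on the left and PG in blue on the right of each list and the replicate number over each point. The acinar genes other than prss59.1, ctrb1, amy2al1 and pdia2 run from 66.8 to 153 in PV and from 168 to 355 in PG. They still include prss59.2, which is from the panel drawn for lower levels in PV. With amy2al1 and pdia2, the sums run from 2168 to 2444 in PV and from 1314 to 1539 in PG. PV replicate 3 lies far below the other libraries for hepatocyte genes (112) and vitellogenins (294).

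PG replicate 3 was the highest library of ctss2.1 and of the summed oocyte markers, whereas prss59.1 and ctrb1 were lowest there among PG libraries. Single oocyte markers differed in this, and gdf9, dazl, ca15b, piwil1, rnf17 and sycp3 also had their lowest PG value in replicate 3. Of 14 oocyte genes 5 were called lower in PV and none higher: zar1, a maternal factor of the egg-to-embryo transition (-1.70), the egg coat genes zp2.1 (-1.52) and zp3b (-1.36), piwil1, a piRNA-binding protein (-1.32), and buc, the organizer of the Balbiani body (-1.08). Scaled by library totals, zar1 and zp2.1 stayed called. Over all genes tested, 5.97% were called lower and 13.2% higher in PV. Of 10 follicle cell genes 7 were called higher, led by amh, anti-Müllerian hormone (5.98), fshr, the FSH receptor (4.66), and cyp19a1a, aromatase (3.94), and only wt1b was called lower (-1.18), a call lost with library totals (-0.77).

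Profiles over the 6 libraries were compared as log2(CPM + 0.5), centred on each gene's mean, by the root mean square distance to each protease gene. Among 630 genes with at least 20% of its mean normalized count, the nearest to ctss2.1 were slbp2, an oocyte-type stem-loop binding protein (distance 0.0185), si:ch1073-75o15.3 (0.0238), si:dkey-90l23.1 (0.0263), crp2 (0.0362) and cldng, a claudin (0.0404). slbp2 had 11741 normalized counts in PV and 28318 in PG on average, a log2 fold change of -1.27. Nearest to prss59.1, among 16173 genes, were si:dkeyp-72e1.9 (0.213), eslec (0.234), c3a.4, a complement C3 gene (0.235), and lrwd1 (0.283), and eslec averaged 1.68 in PV and 32.1 in PG. Nearest to ctrb1, among 18127 genes, were urahb (0.168), SLAIN1, ADAMTS8, HMCN1 and ifi30b (0.254). Nearest to enpep, among 19164 genes, were tac3b, a tachykinin gene (0.0847), gja13.2, a connexin gene, si:ch211-241b2.4, ABCC8 and si:ch211-149m17.5 (0.0977). The distances of the rare genes cannot be set against those of ctss2.1, because the added 0.5 CPM flattens low profiles, and a search over so many genes finds near ones for any profile of 6 points.

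Beside its relatives of the M1 family, enpep had the fewest counts of those tested and was one of 2 called lower, where 5.97% of all genes tested were. The other was aopep, aminopeptidase O, with 162 ± 24.7 normalized counts in PV and 379 ± 20.2 in PG (SD, n = 3 each). Its log2 fold change was -1.22, and fell short of the fold threshold when scaled by library totals (-0.80). Both enpep and aopep belong to the proteolysis panel drawn for lower levels in PV, so these calls follow from that choice. anpepb was the only M1 gene called higher, where 13.2% of all genes tested were. It had 65, 28 and 51 counts in PV, against 41, 8 and 8 in PG (log2 fold change 1.32, adjusted p = 0.0298 in edgeR's quasi-likelihood F test). This call was lost without PV replicate 1, PV replicate 3, PG replicate 2 or PG replicate 3. The cytosolic npepps, the most counted of the 8 tested, had 3423 ± 91.6 in PV and 3558 ± 74.3 in PG (SD, n = 3 each), with a log2 fold change of -0.06. lnpep (0.93), rnpepl1 (0.55) and lta4h (0.18) had an adjusted p within 0.05 with a higher level in PV, as had 32.7% of all genes tested. The median of the 8 was 0.11.

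In the angiotensin system, on which enpep acts in mammals, most other genes had few counts as well. ace, which makes angiotensin II, had 22, 4 and 17 counts in PV, against 53, 33 and 13 in PG (log2 fold change -1.25, adjusted p = 0.0401 in edgeR's quasi-likelihood F test). After normalization its stages did not overlap, as was so with PV lower for 32.9% of all genes tested. agtr2, an angiotensin II receptor, had 20, 11 and 17 counts in PV, against 6, 0 and 2 in PG, and was called higher (2.48). ren, the renin gene, had no count in any library. agt, the precursor, had 35, 0 and 15 counts in PV and 33, 24 and 26 in PG and did not pass the test (-1.02). atp6ap2, the renin receptor, was the most counted gene of the list (-0.18). Of 6 genes tested, 1 was called higher and 2 lower, ace and enpep, and enpep came from a panel drawn for lower levels in PV. Among all genes tested, 13.2% were called higher and 5.97% lower. The median of the 6 was -0.60. Scaled by library totals, ace lost its call (-0.84).

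Set among the 22 genes of the study's own proteolysis panel, prss59.1, enpep and ctrb1 had larger fold changes than most, and ctss2.1 had a middling one. All 20 genes tested were called lower in PV, which follows from how the panel was drawn, and 19 of them had no overlap between the stages, ctrb1 being the exception, where 32.9% of all genes tested lay lower in PV without overlap. The median log2 fold change was -1.37. After the 3 rare genes came prss59.2 (-2.25), tmprss13a, a membrane serine protease (-2.05), cpm, carboxypeptidase M (-1.62), apaf1, the apoptosome core (-1.57), mpnd (-1.46) and capn12, a calpain (-1.44). Lower in size were AEBP1 (-1.37), si:ch211-202f3.3 (-1.37), capn1b, a calpain (-1.26), zgc:162939, listed above as aopep (-1.22), dpp6a (-1.21), PSMB10, a proteasome subunit (-1.17), agbl5 (-1.13), uchl1, a ubiquitin hydrolase (-1.02), cpdb, carboxypeptidase D (-1.02), and zgc:92313 (-1.01). The rest, zgc:153968 and GZMM, were below the filter, with 0, 0 and 0 counts in PV against 7, 11 and 3 in PG for zgc:153968, and 1, 3 and 0 in PV against 9, 13 and 9 in PG for GZMM. Scaled by library totals, 6 of the 20 stayed called, prss59.1 and enpep among them.

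**Figure D5:**
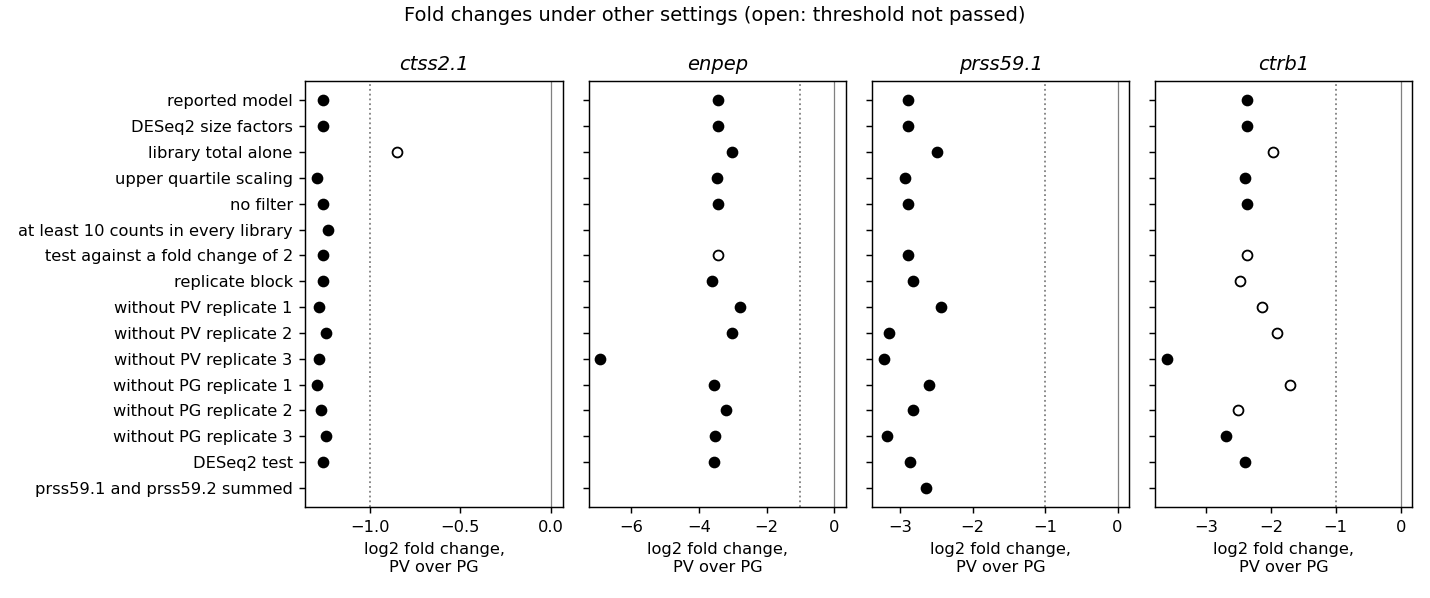
Log2 fold change, PV over PG, of the 4 protease genes under each scaling, filter, test and omission of a library, filled where the gene was called and open where it was not, with a dotted line at the fold threshold. ctss2.1 stays between -1.29 and -1.23 except with library totals (-0.85), while ctrb1 runs from -3.60 to -1.70 and is open in 7 of its fits.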

How the data were processed

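RNA-seq data of 3 PV and 3 PG follicle libraries were used, grouped by the stage in their labels. Per the labels, quality was checked with FastQC (0.11.5) and reads were aligned to GRCz10 with TopHat2. The authors extracted a raw count per Ensembl gene with StringTie and its prepDE script, which turns the coverage of a transcript and its length into a read number, so a count of 1 or 2 is an estimate. The deposited normalized counts are a signal made by dividing the counts by 1 size factor of DESeq2 per library, and the ratio of the 2 tables was constant within each library. The labels and the methods name different library kits, one of them directional, and whether strand was used in counting is not given in the sources used here, so overlapping or antisense genes may share reads. Per the methods, 3 pools of 3 fish each gave RNA of both stages, so the 6 libraries come from 3 pools, and whether equal replicate numbers mark the same pool is not stated. The methods describe paired-end reads and no molecular identifiers, so limits from counts cover counting error only and take counts as independent.

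Counts were tested with edgeR's quasi-likelihood test (edgeR 4.0.16, limma 3.58.1, R 4.3.3) with TMM scaling and filterByExpr (minimum count 10, minimum total 15), stage as the only factor, and Benjamini-Hochberg adjustment over 15899 genes. The standard error is the log2 fold change divided by the root of the F statistic. Alternatives were DESeq2 (1.42.0), other scalings and filters, a test for changes beyond a fold of 2, the replicate number as a block, the sum of both prss59 genes, and omission of each library. The code was tested on simulated data. Intervals of summed counts are exact at 95% for independent counts. Tables were handled with numpy 2.4.6 and pandas 2.3.3, and figures drawn with matplotlib 3.10.9.

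The genes and all lists were chosen with earlier results of these data known. Named were the 4 protease genes, every cathepsin with a count, acinar genes with at least 10 counts in any library, the whole proteolysis panel, the 5 nearest profiles of each protease gene, and in other lists the most counted gene and the 3 largest called changes. Some genes that this rule or the lists hold are not reported here. Gene symbols were found for 26620 of the 31540 genes, 26073 of them in a table of gene names and the others in the study's supplementary table. Sequences of the genes were not used here.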

Additional observations from a re-analysis of the deposited data

How the results depend on the processing

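prss59.1 kept its direction and call in all 14 alternatives, ctss2.1 in 13 of 14, enpep in 12 of 13 and ctrb1 in 6 of 13. With scaling by the library total alone, ctss2.1 had a log2 fold change of -0.85 (adjusted p = 5.5e-08 by edgeR's quasi-likelihood test) and ctrb1 -1.97 (adjusted p = 0.0502), 4 lysosomal and 3 exocrine genes were called, and 89.8% of the 4079 DEGs were higher in PV, against 68.9% of 3054 with TMM. Against a fold change of 2, enpep (-3.44, adjusted p = 0.0692) and ctrb1 (-2.37, adjusted p = 0.239 by edgeR) were not called, and neither were lysosomal or M1 genes (0 each), while 3 exocrine genes and 1435 of all genes were. A minimum of 10 counts in every library left ctss2.1 alone of the 4 genes to test, with 1 cathepsin, 0 lysosomal, 0 exocrine and 1 M1 gene called, and 1837 of all genes. Without a filter, and with DESeq2's test, 2 lysosomal genes were called.

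With the replicate number as a block, ctrb1 had a log2 fold change of -2.48 and was not called (adjusted p = 0.0709 by edgeR), 3 exocrine genes were called (prss59.2 was lost too), and no other call among the 4 genes changed. Deviations of same-numbered PV and PG libraries from their stage means had correlations of -0.0159, 0.0191 and 0.06 across 12229 genes. Both stages came from the same fish groups, but the sources do not state that the numbers match, and the numbers were not taken as pairs.

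With each library left out in turn, the log2 fold change ran from -1.29 to -1.24 for ctss2.1, from -3.23 to -2.44 for prss59.1, and from -3.60 to -1.70 for ctrb1. For enpep it ran from -6.92 to -2.80, where -6.92 comes from the fit without PV replicate 3 and gives no size, as no PV count remains. Called were 2 to 2 cathepsins, 1 to 2 lysosomal, 3 to 7 exocrine, 2 to 3 M1 genes and 2827 to 3097 of all genes. The fewest exocrine calls came without PV replicate 2, PG replicate 1 or PG replicate 2, and the most without PV replicate 3 or PG replicate 3. Depth limits the rare genes, since 3 counts in PG replicate 3 are 5.41 normalized counts.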
